A study of Mus musculus with 10 samples.

Results

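The cornified envelope is the protein shell that replaces the plasma membrane of a keratinocyte as it dies in the outer layer of the skin, and the genes followed here encode its precursors, the enzymes that crosslink them, the proteases and junction proteins that let dead cells be shed, and the enzymes of the lipid barrier. Members were chosen by symbol and not by a cut on measured values, though earlier results of these data were known. They were every gene whose symbol starts with Sprr or Lce, and a fixed set of envelope, filaggrin-type, transglutaminase, corneodesmosome, protease and lipid barrier genes. Of 64 such genes known to RefSeq or the array, 49 had a probe set that carries their symbol alone, out of 18193 genes measured in this way. For 12 genes, among them Flg2, Sprr4 and Lce6a, no probe set was listed, and 3 (Sprr2a1, Sprr2a2 and Sprr2a3) were listed only on probe sets with several symbols and were not described. The probe set with the highest mean over the arrays stood for each gene, and levels were compared between arrays within a gene.

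RNA came from subcutaneous biopsies and from grafts, with 1 array for each of 10 conditions. Control was a non-transplanted healthy mouse and Diabetic a non-transplanted mouse made diabetic with streptozotocin, both at day 0. PSI grafts held rat islets in a plasma-based scaffold, PSI-F grafts also held cultured mouse skin fibroblasts, and both were taken from diabetic recipients 1, 3, 7 or 10 days after transplantation. All recipients were male Swiss nu/nu mice, 6 weeks old in the study's methods, which are immunodeficient nude mice. The methods name no other mouse strain and give no separate strain, sex or age for the Control and Diabetic mice. Islets were taken from male Wistar rats 12 weeks old, and the fibroblasts from nu/nu skin. A graft was laid over the abdominal muscle through a skin incision, and the fibroblasts were grown from full-thickness skin that had not been split into dermis and epidermis. According to the methods, 2 mice of each graft kind were sacrificed on each day and the RNA of best quality was hybridized, and the sources used here do not say whether an array holds RNA of 1 mouse. The difference between PSI-F and PSI on a day is therefore a difference between 2 arrays, with no replicate and no p-value.

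In the epidermis, keratinocytes leave the basal layer, switch to the spinous keratins and then make loricrin, involucrin, filaggrin and the small proline-rich (Sprr) and late cornified envelope (Lce) proteins, which transglutaminases weld into the envelope. Sprr genes are known for rising in wounded and inflamed epidermis, together with the keratins Krt6 and Krt16, whereas loricrin and filaggrin belong to normal differentiation. In the files, levels are log2 values made by RMA (robust multi-array average), so a difference of 1 stands for 2-fold and a difference of 2 for 4-fold. Array medians lay between 2.82 and 2.94, and levels near or below them are close to background. Of the 49 genes, 42 lay above the median on all 10 arrays, against 59.6% of all genes. Sprr3, Sprr2j-ps and Abca12 were at or under it on all 10, Lce1g on 9, and Sprr2f, Sprr2i and Lce3a on some, so differences in these genes are less reliable. Keratinocyte genes were present in all samples: Krt14 and Krt5, the keratins of the basal layer, ranged from 9.66 to 11.87 and from 9.64 to 11.33, and the spinous keratin Krt10 from 11.10 to 11.77. Skeletal muscle genes were also high, with list medians between 11.34 and 12.26. Both kinds of biopsy and the grafts thus held transcripts of skin and muscle, and in such mixed tissue fewer keratinocytes and less RNA per keratinocyte cannot be told apart.

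Of the 49 genes, 29 lie on chromosome 3 between positions 92080271 and 93399442 (GRCm38.p6, coordinates from RefSeq), in the cluster known as the epidermal differentiation complex, and 20 lie on other chromosomes. The promoters of the 6 genes at 2-fold or more above PSI in the PSI-F graft of day 3, all of them in this cluster, are shown here because these genes are the largest group of members apart between graft kinds on any day. The sequences run 5′ to 3′ and end just before the annotated start. They come from RefSeq (GRCm38.p6), and 44 of the 49 genes had a window of 250 bases. Capitals mark matches to the AP-1 motif TGANTCA, bound by Fos and Jun factors, and to the TATA box motif TATAAA, and the bases of Sprr1b that overlap its annotated gene, with its TATA match, were left out.
Sprr1b (chr3:92438818-92439029, minus strand): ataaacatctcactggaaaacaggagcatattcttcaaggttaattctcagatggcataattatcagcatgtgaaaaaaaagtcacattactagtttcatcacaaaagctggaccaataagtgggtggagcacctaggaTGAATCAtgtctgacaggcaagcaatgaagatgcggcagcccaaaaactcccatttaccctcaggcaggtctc
Sprr2d (chr3:92338890-92339139, plus strand): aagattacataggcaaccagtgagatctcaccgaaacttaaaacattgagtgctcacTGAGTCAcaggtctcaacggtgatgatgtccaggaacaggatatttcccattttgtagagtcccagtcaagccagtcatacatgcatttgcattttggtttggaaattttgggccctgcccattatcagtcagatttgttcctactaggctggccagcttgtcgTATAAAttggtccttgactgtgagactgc
Sprr2h (chr3:92385435-92385684, plus strand): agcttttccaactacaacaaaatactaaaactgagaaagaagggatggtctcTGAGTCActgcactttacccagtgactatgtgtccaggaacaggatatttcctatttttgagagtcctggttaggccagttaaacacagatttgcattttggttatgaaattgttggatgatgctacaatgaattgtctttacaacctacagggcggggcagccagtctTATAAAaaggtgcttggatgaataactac
Sprr2i (chr3:92407741-92407990, plus strand): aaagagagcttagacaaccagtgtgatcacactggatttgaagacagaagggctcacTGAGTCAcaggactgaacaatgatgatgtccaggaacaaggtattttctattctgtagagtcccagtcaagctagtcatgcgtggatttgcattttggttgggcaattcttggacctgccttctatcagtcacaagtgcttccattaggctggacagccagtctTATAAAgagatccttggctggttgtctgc
Rptn (chr3:93393449-93393698, plus strand): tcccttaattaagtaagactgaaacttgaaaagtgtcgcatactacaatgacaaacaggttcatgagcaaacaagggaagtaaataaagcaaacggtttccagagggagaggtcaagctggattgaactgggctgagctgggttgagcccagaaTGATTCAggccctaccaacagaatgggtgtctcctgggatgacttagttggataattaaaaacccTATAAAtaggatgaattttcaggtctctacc
Lce3f (chr3:92991967-92992216, plus strand): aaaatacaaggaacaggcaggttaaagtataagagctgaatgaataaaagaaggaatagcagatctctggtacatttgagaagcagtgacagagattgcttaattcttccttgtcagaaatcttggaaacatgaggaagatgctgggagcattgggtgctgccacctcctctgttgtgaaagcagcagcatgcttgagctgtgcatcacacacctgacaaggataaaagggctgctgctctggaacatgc

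Of these 6 genes, 5 held an AP-1 match and 5 a TATA match, and Lce3f held neither. Of the 2 members 2-fold lower in PSI-F on day 3, Tgm3 held a TATA match and no AP-1 match. Lce3a, whose window is shown here, held neither, like Lce3f.
Lce3a (chr3:92926231-92926480, minus strand): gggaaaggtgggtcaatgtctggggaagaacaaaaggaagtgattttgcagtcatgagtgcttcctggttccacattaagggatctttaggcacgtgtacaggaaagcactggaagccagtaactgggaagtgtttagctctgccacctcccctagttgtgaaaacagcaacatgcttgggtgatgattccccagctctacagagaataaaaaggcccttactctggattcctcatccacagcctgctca

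Searched on both strands over 250 bases, the AP-1 letters were in 33.3% of the members' 48 windows and in 6.75% of all 32851 windows. The TATA letters were in 35.4% and 12.4%, and a KLF motif, CACACCC, in 10.4% and 6.93%. Among the Sprr genes, 7 of 8 with a window held AP-1 and all 8 held TATA, whereas none of 14 Lce genes held AP-1 and 2 held TATA. In Sprr2d, Sprr2f, Sprr2h, Sprr2i and Sprr2k the TATA match began at position -29 from the annotated start, and their windows were 60.1% to 80.6% identical, so that these promoters are related copies and not independent cases. In Rptn the AP-1 match began at position -96 from the start. Of the other 38 members with a window, 9 held an AP-1 match. A match says only that these letters are in the window.

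The Sprr genes, whose proline-rich products are flexible crosslinked parts of the envelope, held the largest difference of any member between PSI-F and PSI, on day 3. Sprr1b had log2 levels of 8.83 in Control and 7.87 in Diabetic. In PSI grafts it was at 5.22, 4.84, 7.19 and 7.84 on days 1, 3, 7 and 10, and in PSI-F grafts at 6.09, 8.46, 7.50 and 7.29. Its level was thus low in the PSI grafts of days 1 and 3 and in the PSI-F graft of day 1, and the PSI-F graft of day 3 lay between both biopsies. The day 3 difference was 3.61, or 12.2-fold, and Sprr1b was the only member past 4-fold on that day, against 0.159% of all genes in this direction and 0.566% in the other. Sprr2d was at 6.01 in Control, 4.34 in Diabetic, 3.88, 3.48, 5.43 and 5.32 in PSI and 3.89, 5.39, 5.27 and 3.85 in PSI-F, in the order of days. It was therefore higher in PSI-F by 1.92 on day 3 and lower by 1.46 on day 10. Sprr2h, measured by a probe set that may also bind related Sprr2 transcripts, was at 9.12 in Control and 6.44 in Diabetic, at 4.63, 4.48, 5.91 and 7.39 in PSI and at 4.74, 6.23, 6.91 and 7.06 in PSI-F. Its levels were lower on days 1 and 3 than on days 7 and 10, with the PSI-F graft of day 3 the one exception. Sprr2i was at most 3.91, its value in PSI-F on day 3, where it was 1.88 higher than in PSI, and lay under or near the array median on the other arrays.

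**Figure D1:**
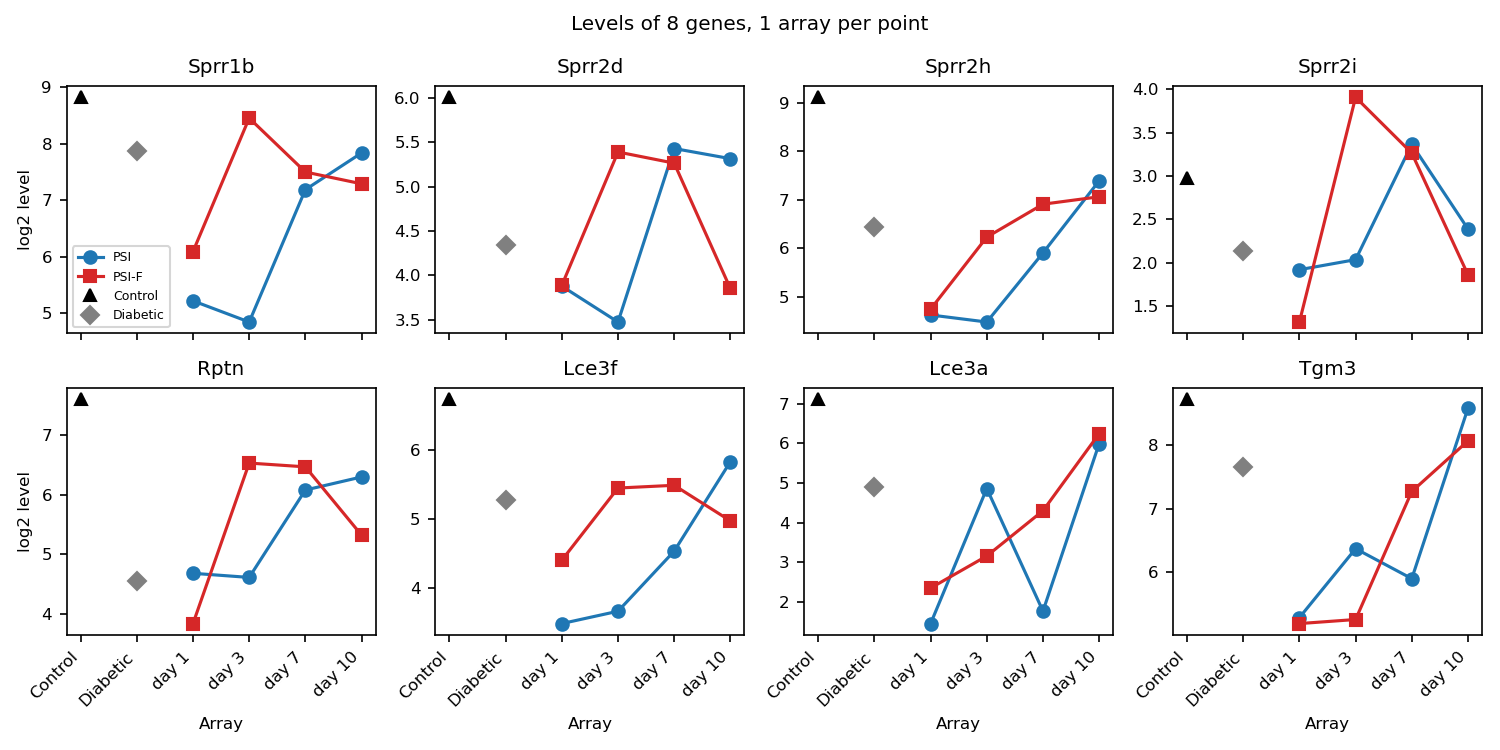
Log2 level (vertical axis, with its own range in each panel) of 8 genes on the 10 arrays (horizontal axis). Triangles stand for Control, diamonds for Diabetic, circles for PSI and squares for PSI-F, each point is 1 array, and lines join days for reading only. On day 3 the square lies above the circle for Sprr1b, Sprr2d, Sprr2h, Sprr2i, Rptn and Lce3f, and below it for Lce3a and Tgm3.

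The other Sprr genes did not share this pattern. Sprr1a was at 11.44 in Control, 10.06 in Diabetic, 9.40, 10.26, 8.40 and 10.18 in PSI and 9.91, 10.05, 8.55 and 10.99 in PSI-F. It was lowest in both grafts of day 7, and its PSI-F minus PSI differences lay between -0.21 and 0.81. Sprr2f was at 4.87 in Control and at 1.12 to 3.02 on the other 9 arrays, close to background. Sprr2k, Sprr3 and Sprr2j-ps, a pseudogene, ranged over less than 1 log2 unit.

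Rptn, which encodes repetin, a fused S100-type protein of the envelope, had a course like that of Sprr1b and Sprr2d. It was at 7.61 in Control and 4.55 in Diabetic, at 4.68, 4.61, 6.08 and 6.29 in PSI and at 3.84, 6.53, 6.46 and 5.32 in PSI-F. On day 3 it was 1.92 higher in PSI-F, and 0.62 higher as the mean of all its probe sets. The other 2 probe sets of Rptn were below the array medians, at 0.73 to 1.60, and differed by 0.04 and -0.09 on that day. Its relatives filaggrin (Flg), the keratin-bundling protein whose breakdown products retain water, and hornerin (Hrnr) moved less. Flg was at 8.97 in Control, 9.0 in Diabetic, 8.55, 8.02, 9.02 and 9.06 in PSI and 7.73, 8.67, 8.59 and 8.99 in PSI-F. All 3 genes of this kind were lower in PSI-F on day 1, by 0.75 to 0.84, and higher on day 3, by 0.65 to 1.92.

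The Lce genes, which encode small cysteine-rich envelope proteins made late in differentiation, comprised a steady and a variable group. Lce1a2 was at 10.03 in Control, 9.54 in Diabetic, 9.68, 9.50, 9.27 and 9.52 in PSI and 9.61, 9.66, 9.14 and 9.66 in PSI-F. The 11 Lce1 genes ranged over 0.89 to 1.62 log2 units across the 10 arrays, and none was 2-fold apart between PSI-F and PSI on any day. The 4 Lce3 genes ranged over 1.88 to 5.67. Several Lce probe sets (Lce1d, Lce1h, Lce1i, Lce1m, Lce3b and Lce3c) may bind more than the named gene, so their values cannot be assigned with certainty. Lce3f was at 6.74 in Control, 5.28 in Diabetic, 3.49, 3.67, 4.54 and 5.83 in PSI and 4.41, 5.45, 5.49 and 4.97 in PSI-F, a difference of 1.78 on day 3. Lce3a had the largest range of all members, from 1.45 in PSI on day 1 to 7.13 in Control. It was at 4.89 in Diabetic, at 1.45, 4.86, 1.77 and 6.0 in PSI and at 2.35, 3.16, 4.30 and 6.25 in PSI-F. It was lower in PSI-F by 1.70 on day 3 and higher by 2.53 on day 7, with its PSI values of days 1 and 7 and its PSI-F value of day 1 under the array median.

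Transglutaminases join the envelope proteins, and Tgm3, which is also active in the hair follicle, followed Lce3a and not the Sprr genes. Tgm3 was at 8.72 in Control, 7.65 in Diabetic, 5.29, 6.37, 5.90 and 8.57 in PSI and 5.19, 5.26, 7.27 and 8.06 in PSI-F. PSI-F was lower by 1.11 on day 3 and higher by 1.37 on day 7, and a second probe set of the gene gave the same order, with 5.39 in PSI and 3.97 in PSI-F on day 3 and 4.46 and 5.89 on day 7. Tgm1, the membrane-bound transglutaminase of the epidermis, was at 7.20 in Control, 6.71 in Diabetic, 5.36, 5.99, 5.13 and 6.68 in PSI and 5.10, 5.57, 5.20 and 6.84 in PSI-F. Its levels were low through day 7 and close to Diabetic on day 10.

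Loricrin (Lor), the main protein of the mature envelope, varied little. It was at 11.19 in Control, 11.40 in Diabetic, 10.99, 10.87, 10.81 and 11.07 in PSI and 10.86, 10.94, 10.54 and 11.25 in PSI-F, a range of 0.86. Involucrin (Ivl), an early scaffold of the envelope, was highest in Control, at 9.23 against 7.42 in Diabetic, and ranged from 6.88 to 8.40 in the grafts. The secreted protein suprabasin (Sbsn) was between 11.01 and 11.65 on all arrays. It was at 11.65 in Control, 11.37 in Diabetic, 11.30, 11.09, 11.06 and 11.32 in PSI and 11.27, 11.23, 11.01 and 11.31 in PSI-F.

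Several genes of shedding and of the lipid barrier were lowest in the grafts of day 7. Corneodesmosin (Cdsn), the glue of corneodesmosomes, was at 9.58 in Control, 8.63 in Diabetic, 8.54, 8.66, 7.62 and 8.83 in PSI and 8.52, 8.84, 7.74 and 9.36 in PSI-F. The protease Asprv1, which processes filaggrin, was at 10.04 in Control, 9.69 in Diabetic, 9.47, 9.31, 8.98 and 9.48 in PSI and 9.50, 9.79, 8.68 and 9.54 in PSI-F. Elovl4, an elongase of very long fatty acids, was at 9.85 in Control, 8.79 in Diabetic, 8.96, 8.98, 7.92 and 9.26 in PSI and 8.96, 8.96, 7.31 and 8.91 in PSI-F. In each of these genes both day 7 grafts lay below the other 6 grafts. Cers3, the ceramide synthase of the barrier, was at 6.77 in Control, 7.06 in Diabetic, 5.68, 5.41, 4.50 and 5.93 in PSI and 4.98, 5.60, 4.88 and 6.09 in PSI-F. All its 8 graft values lay below both biopsies. Across the 10 arrays, 18 of 49 members ranged over at least 2 log2 units, against 9.06% of all genes. They held 6 of the 9 Sprr genes and none of the corneodesmosome or secreted protein genes.

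**Figure D2:**
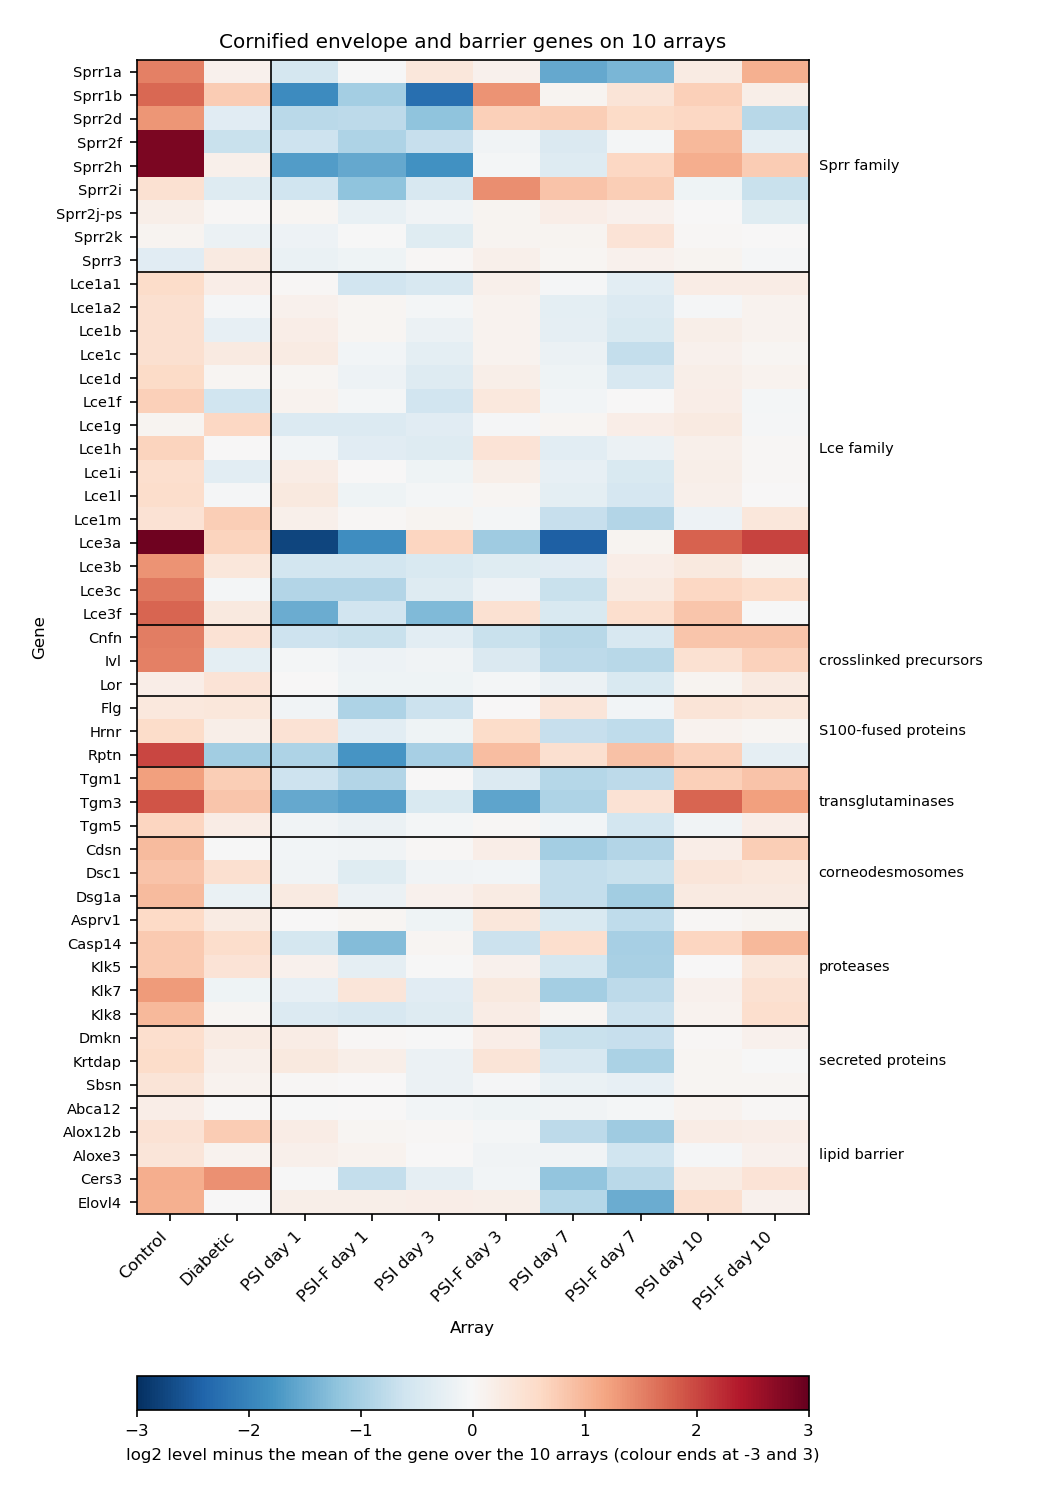
Log2 level of each of the 49 genes minus its mean over the 10 arrays (colour, red above and blue below the mean, ending at -3 and 3), with genes grouped by role in rows and arrays in columns. The Control column holds the highest value of 37 genes, against 17.5% of all genes. The PSI-F day 7 column holds the lowest value of 21, a count for which no share over all genes was taken.

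At 2-fold, 0, 8, 4 and 2 of the 49 members were apart between PSI-F and PSI on days 1, 3, 7 and 10. On day 1 no member was 2-fold apart (0.313% of all genes were higher in PSI-F and 0.819% lower at 2-fold, 0.066% and 0.121% at 4-fold). The median difference was -0.11 against -0.02 over all genes, and 36 of 49 members were lower in PSI-F. A median near 0 over all genes means that about as many of them lay above 0 as below. On day 3 the median was 0.20, against -0.00 over all genes, and 37 were higher. At 2-fold, 6 members (12.2%) were higher in PSI-F, against 0.989% of all genes, namely Sprr1b, Rptn, Sprr2d, Sprr2i, Lce3f and Sprr2h, and 2 were lower, Lce3a and Tgm3, against 1.87%. All 6 lie in the chromosome 3 cluster, and none of the 20 members elsewhere was 2-fold higher. On day 7 the median was -0.05. Lce3a was the only member past 4-fold, against 0.258% of all genes higher and 0.077% lower, and Tgm3 and Sprr2h passed 2-fold in the same direction, against 0.956% of all genes. Casp14, a caspase of terminal differentiation, was 1.52 lower in PSI-F on day 7, against 0.824% of genes 2-fold lower, but a second and dimmer probe set of the gene was 0.38 higher. On day 10 the median was -0.05 and 2 members, Sprr2d at -1.46 and Sprr2f at -1.28, were 2-fold lower in PSI-F, against 0.346% of all genes. None was 2-fold higher, against 0.385%, and none was 4-fold apart, against 0.066% higher and 0.0495% lower. Klk7, a protease that cuts corneodesmosomes, was the only member higher in PSI-F on all 4 days, by 0.60, 0.61, 0.25 and 0.34, and Alox12b, a lipoxygenase of the lipid barrier, the only one lower on all 4. Over all genes these shares were 6.60% and 8.19%.

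**Figure D3:**
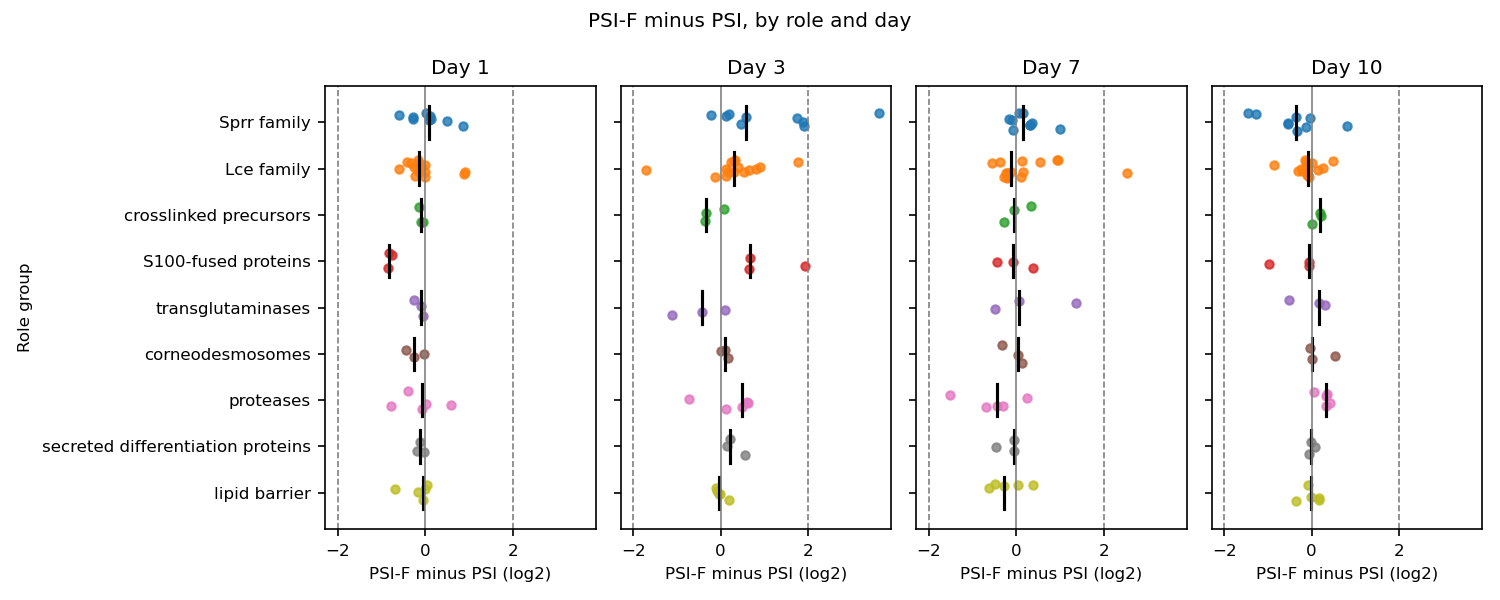
Log2 difference of PSI-F from PSI (horizontal axis) in the 9 role groups (vertical axis), with 1 panel per day. A point stands for 1 gene, black bars are group medians and dashed lines mark 4-fold. On day 3 Sprr1b lies at 3.61 and is the only point past 4-fold, and on day 7 Lce3a at 2.53.

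Keratin and immune cell markers moved on the same arrays. The wound keratins Krt6a, Krt6b, Krt16 and Krt17 had median PSI-F minus PSI differences of 0.94, 2.70, 0.54 and -0.67 on days 1, 3, 7 and 10. On day 3 Krt6b was at 6.06 in PSI and 10.74 in PSI-F. The list medians of these 4 genes ranged from 7.32 to 10.17 over the 10 arrays. The neutrophil list had a median of 2.26 on day 3 and -0.94 on day 10, and none of its 7 genes is a member. Hair follicle genes had medians of -2.04, -5.98, 1.68 and 0.24, and on day 3 all 14 were past 4-fold in the downward direction. Lce3a and Tgm3 had the sign of the hair list on days 3 and 7, but each had the other sign on another day. Lce3a was at 0.90 on day 1 and 0.25 on day 10, and Tgm3 at -0.09 and -0.51. The 6 genes 2-fold higher in PSI-F on day 3 share the sign of the wound keratins on that day by the way they were picked. On day 1 Lce3f was at 0.91, Sprr1b at 0.87, Sprr2h at 0.12, Sprr2d at 0.01, Sprr2i at -0.60 and Rptn at -0.84. The basal and spinous keratinocyte lists had medians of 0.17 and 0.23 on day 3, beside 0.20 for the members. Basal genes ran from -1.06 in Krt15 to 0.90 in Krt14. In the spinous list Krt1 was at 0.95, Krt10 at 0.51 and Krt77 at -0.06, and Krt2 was at background levels. The part of these lists in the differences of the members was not tested. Of 42 other measured barrier genes, taken from a separate list, 3 were 2-fold higher in PSI-F on day 3, among them the serpin Serpinb12 at 2.70 and the protease Klk6 at 1.47, and 1 was lower, the protease St14 at -1.50. Their median was -0.13.

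**Figure D4:**
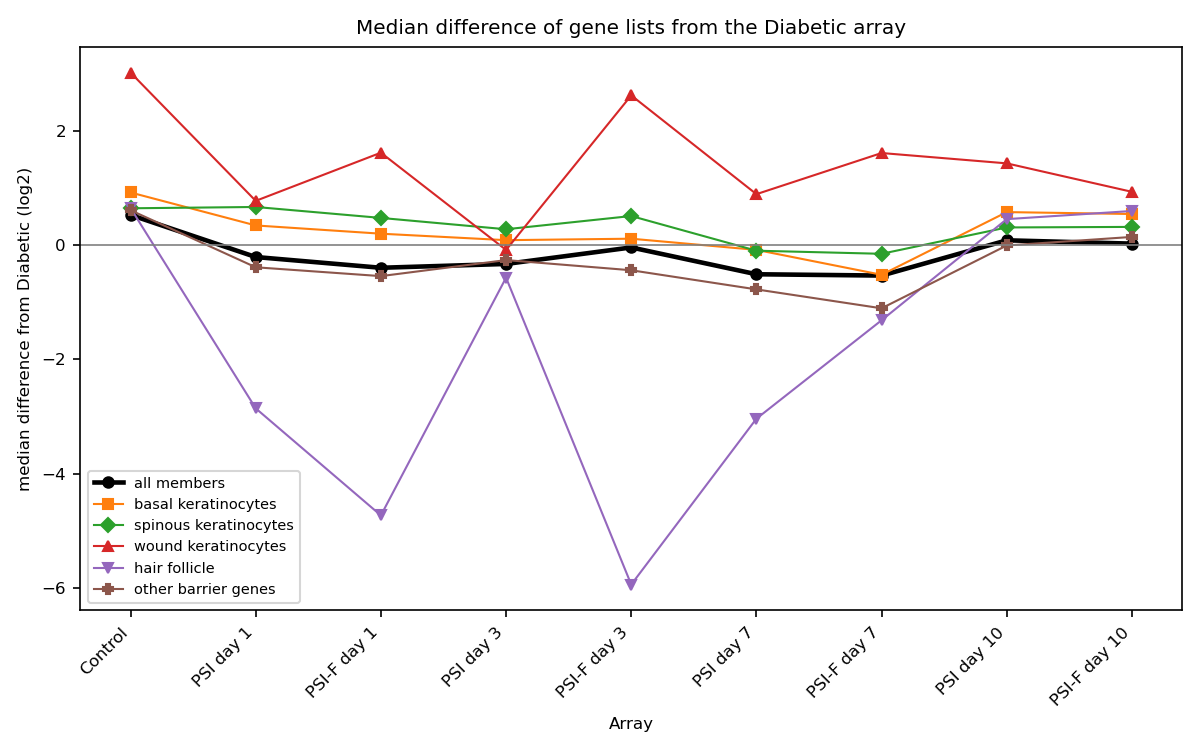
Median difference from the Diabetic array (log2, vertical axis) of 6 gene lists on the other 9 arrays (horizontal axis), 1 line per list, with lines joining arrays for reading only. All values share the Diabetic array. The members (black) stay between -0.53 and 0.53, and the wound keratins are highest in Control. In PSI-F on day 3 the wound keratins are at 2.61 and the hair follicle genes at -5.93.

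A difference over all 4 days was tested with limma on the 8 grafts, with the day as a block and days standing in for replicates. The median of the members was -0.01, with 24 above 0 and 25 below. No member had an adjusted p under 0.05 (Benjamini-Hochberg over all 45037 probe sets), and neither had any other gene (0.00%). The smallest adjusted p of a member was 0.751. An unadjusted p under 0.05 was reached by 2 members, Klk7 at 0.45 ± 0.11 (standard error) and Casp14 at -0.68 ± 0.25, against 6.28% of all genes.

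Several courses over the days were seen among the members. With 1 array per condition, the day and the mouse or piece of tissue cannot be told apart. Both day 7 grafts lay below the other 6 grafts in 21 of 49 members, against 9.11% of all genes. These were 9 of the 29 members on chromosome 3 and 12 of the 20 elsewhere, and they held all 3 corneodesmosome genes and all 3 secreted proteins of differentiation, suprabasin, dermokine (Dmkn) and Krtdap. Both day 10 grafts lay above the other 6 in 15 members, against 8.58%, including Ivl, Cnfn, Lor, Tgm1, Tgm3 and Cers3. Lor was in both of these counts through a probe set that may bind related transcripts. A second bright probe set of Lor followed neither course. It was at 10.29 in PSI and 10.42 in PSI-F on day 7 and at 10.25 in both on day 10, against 10.02 to 10.36 in the grafts of days 1 and 3. Both day 1 grafts lay below the others in 4, against 6.96%, and above them in none, against 7.74%. The day 3 grafts lay below the others in none, against 3.37%, and above them in none, against 4.5%. Only Sprr2j-ps, at background levels, was highest in both day 7 grafts, against 8.12%, and no member was lowest in both of day 10, against 7.62%. Basal keratinocyte genes had their lowest list median in PSI-F on day 7, at 7.62, against 7.80 in PSI on day 7 and 7.85 to 8.88 in the other grafts, and the hair follicle list was at 6.46 in PSI and 8.36 in PSI-F on that day. Their part in the day 7 values was not tested.

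With limma, days 7 and 10 minus days 1 and 3 gave a median of 0.02 over the members, and 25 were above 0. None had an adjusted p under 0.05, against 0.374% of all genes, and 8 had an unadjusted p under 0.05, against 16.8%. The largest differences were in Tgm3, at 1.92 ± 0.55 (adjusted p = 0.163, limma), and Sprr2h, at 1.80 ± 0.39 (adjusted p = 0.0904, limma, the smallest). Without the PSI array of day 7, Tgm3 was at 2.56 with an adjusted p of 0.0465 by limma. In the same comparison of all 8 grafts the median was 2.54 over 14 hair follicle genes, none of them called, and -1.19 over 7 neutrophil genes, 1 of them lower, and their part in the values of the members was not tested. A poly-A control, which is added to the RNA before labelling (the 5′ probe set of dap), was at 6.06 to 6.76 on the 4 arrays of days 7 and 10 and at 3.81 to 4.40 on the other 6, so that this technical difference and time cannot be told apart here.

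The members were lower in Diabetic than in Control. The median of Control minus Diabetic was 0.53, and 42 of 49 were higher in Control. Over all genes the median was 0.00, with about as many genes higher as lower. At 4-fold, 4 were higher in Control, against 0.824% of all genes (and 0.473% lower): Sprr2f by 3.50, Rptn by 3.06, Sprr2h by 2.67 and Lce3a by 2.24. At 2-fold, 16 (32.7%) were higher, against 6.89%, and none was lower, against 4.12%. Loricrin and filaggrin differed little, at -0.21 and -0.03. Control was the highest of the 10 arrays in 37 members, against 17.5% of all genes. Diabetic was the highest in 6, a count for which no share over all genes was taken. Other epidermal genes moved with the members. The Control minus Diabetic medians were 3.01 for the wound keratins, all 4 of them past 4-fold, 2.17 for sebaceous gland genes, 0.92 for basal and 0.64 for spinous keratinocyte genes, 0.61 for the other barrier genes and -0.42 for skeletal muscle. The part of these in the members' difference was not tested, and with 1 array each, streptozotocin and the piece of tissue cannot be told apart.

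Compared with Diabetic, no graft had a member 4-fold higher, against 2.0% of all genes in PSI and 2.16% in PSI-F on day 1, 2.0% and 2.95% on day 3, 2.19% and 2.17% on day 7, and 1.3% and 1.1% on day 10. Taken over the 8 grafts, 4.44% of all genes were 4-fold higher in at least 1. In contrast, 4 members were 4-fold lower in at least 1 graft, against 1.98% of all genes: Lce3a, Sprr1b, Tgm3 and Cers3. On day 1 they were Lce3a, Sprr1b and Tgm3 in PSI, against 0.797% of all genes, and Cers3, Lce3a and Tgm3 in PSI-F, against 1.14%. On day 3 Sprr1b was 4-fold lower in PSI, against 0.324%, and Tgm3 in PSI-F, against 1.28%. On day 7 they were Cers3 and Lce3a in PSI, against 0.819%, and Cers3 in PSI-F, against 0.813%. No member was 4-fold lower on day 10, against 0.368% in PSI and 0.429% in PSI-F. Medians from Diabetic were -0.53 to -0.04 through day 7, and 0.08 in PSI and 0.02 in PSI-F on day 10. All these differences share the Diabetic array, and with Control as baseline 17 members (34.7%) were 4-fold lower in at least 1 graft, against 2.56% of all genes, and none was 4-fold higher, against 3.49%.

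Over all arrays, 47 of 49 members were lower in the 8 grafts than in the 2 biopsies, with a median of -0.53. Over all genes the median was -0.02, with about as many genes higher as lower. The median of the members was -0.26 without Control and -0.75 without Diabetic. With limma none had an adjusted p under 0.05, against 0.693% of all genes lower and 2.16% higher, and 11 had an unadjusted p under 0.05, against 20.8%. The smallest adjusted p was that of Cers3, at -1.53 ± 0.36 (0.0551), followed by Lce3b at -1.04 ± 0.29 (0.0878). With the 4 grafts of days 1 and 3 alone, whose poly-A control lay near that of the biopsies, 3 members were lower by limma, against 0.676% of all genes (and 2.19% higher): Cers3 at -1.49 (adjusted p = 0.0243), Tgm3 at -2.66 (adjusted p = 0.0299) and Tgm1 at -1.45 (adjusted p = 0.0488). With those of days 7 and 10 alone there was none, against 0.462%. Of the 42 other barrier genes, 1 was lower in the main comparison, Elovl7 at -1.34 ± 0.29, and their median was -0.82. Among the 11 basal keratinocyte genes no call was made, with a median of -0.28. The median was -2.56 over 14 hair follicle genes and 1.53 over 7 neutrophil genes, none of them called, and 1.5 over 7 fibroblast genes, 1 of them higher. The part of these lists in the values of the members was not tested.

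**Figure D5:**
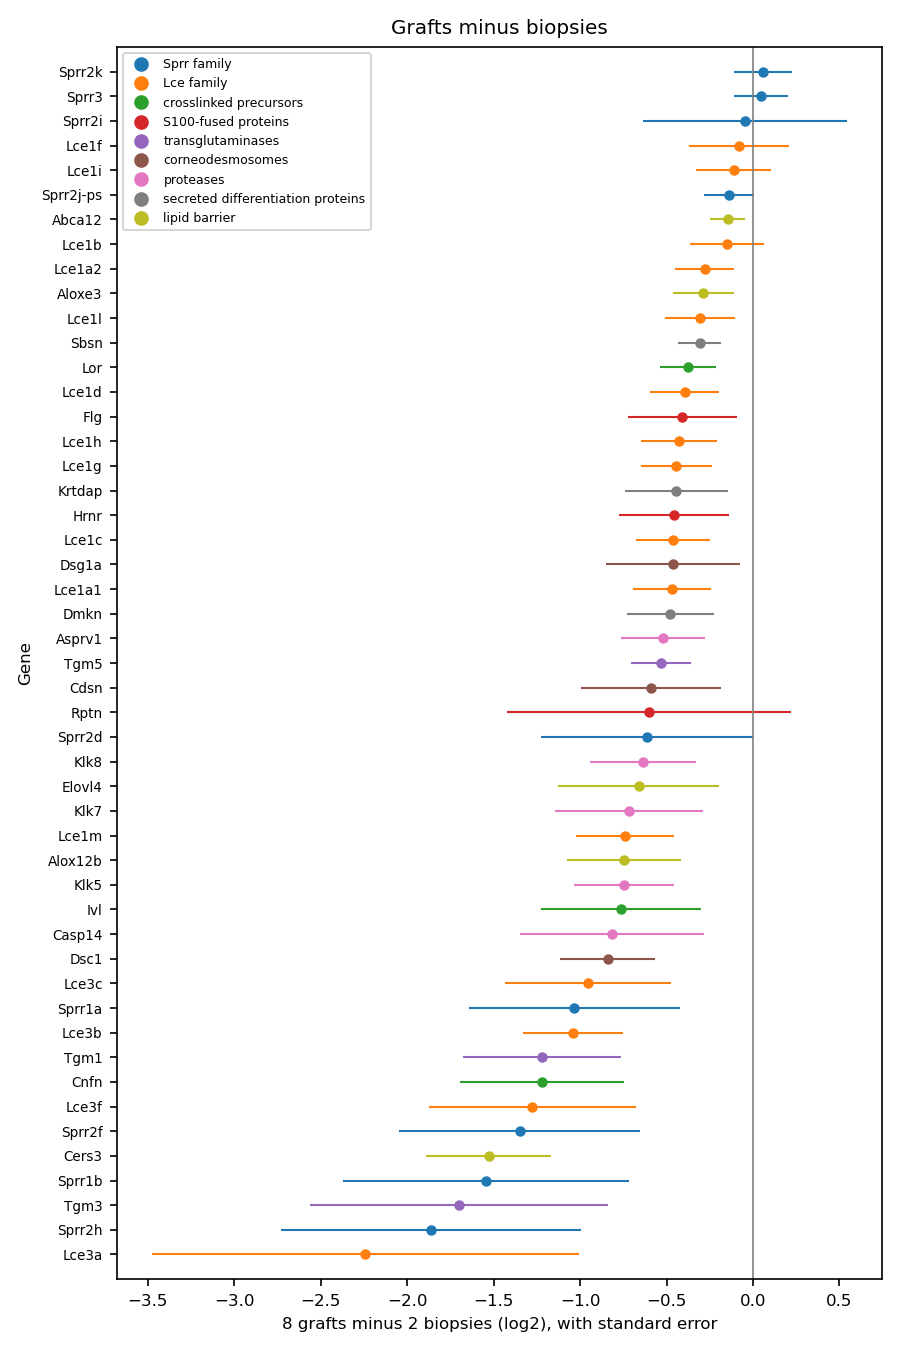
Mean of the 8 grafts minus the mean of both biopsies (log2, horizontal axis) for each of the 49 genes (vertical axis, ordered by the difference and coloured by role). Points are limma estimates and bars their standard errors. All but Sprr2k and Sprr3 lie below 0, and Lce3a is lowest at -2.24.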

How the data were processed

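RNA was hybridized to Affymetrix arrays of mouse probes, 10 in all and 1 per condition. The deposited values are log2 levels per probe set, made by the authors with RMA (background correction, quantile normalization and summary), with affy 1.36.0 under R 2.15.0 in the submitters' processing notes. Symbols came from the platform annotation, and 64 control probe sets of 45101 were left out. Each gene was given by its single-symbol probe set of highest mean level. Differences within a day were counted at 4-fold, the threshold of the study, and at 2-fold, with no test. Comparisons over several arrays used limma (version 3.58.1, R 4.3.3), whose steps were tested on simulated data. The number of arrays limits the precision. Where nothing says that samples are separate animals, p-values measure only the spread between these arrays. Every member could be named, with values on every array for those 4-fold apart between graft kinds and for the gene of each role whose probe set had the highest mean, a choice of example and no measure of abundance, and others, such as the genes 2-fold apart on day 3, were picked after their values were seen. Members, lists and motifs were chosen with earlier results of these data known. Alternatives were a 2-fold threshold, filters on dim probe sets, the mean of a gene's probe sets, cyclic loess (3 iterations), other covariates, an intensity trend, other baselines and leaving out arrays or days. Chosen after seeing the data were the counts without probe sets that may bind several transcripts and the dim filter for Control and Diabetic. Figures were made with Python 3.11.15 and matplotlib 3.10.9.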

Additional observations from a re-analysis of the deposited data

Results flagged for a closer look

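In 3 genes PSI-F minus PSI (log2) was at least 1 in one direction on 1 day and at least 1 in the other direction on another. Sprr2d was at 1.92 on day 3 and -1.46 on day 10. Lce3a was at -1.70 on day 3 and 2.53 on day 7, and Tgm3 at -1.11 on day 3 and 1.37 on day 7. The change between days was not tested, since each condition has 1 array. Beside these values, the hair follicle list had medians of -5.98 on day 3 and 1.68 on day 7, the wound keratins 2.70 on day 3 and -0.67 on day 10, and the neutrophil genes 2.26 on day 3 and -0.94 on day 10, and their part was not tested.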

How the results depend on the processing

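At 2-fold in place of 4-fold, 8 members were apart between PSI-F and PSI on day 3, 4 on day 7 and 2 on day 10, against 1, 1 and 0 at 4-fold, and 16 between Diabetic and Control, against 4. With Control as baseline 17 members (2.56% of all genes) were 4-fold lower in at least 1 graft, against 4 (1.98%) with Diabetic. The count of members lower in grafts than in biopsies by limma, 0 in the main comparison, was 1 with an intensity trend (Cers3, adjusted p = 0.0488), 1 with a filter on dim probe sets (Cers3, adjusted p = 0.0401) and 3 (0.676% of all genes) with days 1 and 3 only. Leaving out 1 array or day in turn gave 0 to 0 members for PSI-F minus PSI, 0 to 1 for late minus early grafts (Tgm3, without PSI day 7) and 0 to 1 for grafts minus biopsies (Cers3, adjusted p = 0.0373, without PSI-F day 10). The other 68 values of these comparisons stayed within 1.5 times the count or within the spread of the day medians, a standard deviation of 0.14. This tolerance is wider than the medians of days 1, 7 and 10 themselves, so it is a weak check on them. Their sign stayed the same in each setting. No direction turned among genes 2-fold apart on a day or called by limma in any setting. The limma medians of the members that lay near 0 did change sign. They ran from -0.08 to 0.05 for PSI-F minus PSI and from -0.08 to 0.10 for late minus early grafts. Cyclic loess moved array medians by at most 0.055. PSI-F and PSI were paired by day through the day block, and without this block no member had an adjusted p under 0.05 either, with a smallest of 0.997 by limma, against 0.751. Levels near the array median limit Sprr2f, Sprr2i, Lce1g and Lce3a.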
